A study of Drosophila melanogaster with 9 samples.

Results

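Open chromatin was profiled with the Tn5 transposase, which inserts sequencing adapters into exposed DNA (ATAC-seq), in Kc167 cells, a hemocyte-like line derived from Drosophila melanogaster embryos and labelled female. The account below is of the open chromatin of mock cells, which went through transfection with no RNA added, in 3 biological replicates. The series also holds 3 M1BP knockdown and 3 Cp190 knockdown libraries, from cells that received double-stranded RNA against M1BP (20 micrograms) or against Cp190 (12 micrograms). All groups were harvested on day 5, and each library was made from 100000 cells. Overlapping peaks of the 3 mock lists were merged into regions, and a region was kept when each of the 3 lists had a peak in it. This gave 14526 regions of the 21389 that had a peak in any mock list (67.9%), where the 9 lists of the series merge into 25579. Of the 14526 regions, 14507 lay on the 6 chromosome arms used below. A single cell line in culture stands for one cell type only, and the transfection itself is common to every library.

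Open chromatin is DNA that nucleosomes leave exposed, and in flies it is found at active promoters, enhancers, insulators and some transcribed gene bodies. Promoters in dividing cells tend to be kept open by sequence-specific factors such as M1BP at Motif 1, Dref at the DRE and the GAGA factor Trl at runs of GA repeats. Accessible sites away from promoters include enhancers and Polycomb response elements, several of which are known to be bound by Trl.

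Among the 15 strongest regions, 5 are shown by their sequence, because GA repeats were the feature that most of the 15 shared. Strength was ranked by the −log10 q of the peak summit, as a percentile within each library's own list, where 100 is the strongest peak. Each line holds the 81 bp centred on the summit, on the plus strand of dm6 (RefSeq sequence), and capitals mark GAGAG or its complement CTCTC. The regions are those in an intron of CG5888 (chr2L:16422775-16422855), at a start of cpo (chr3R:17943935-17944015), in lncRNA:bxd (chr3R:16764132-16764212), at a start of pnt (chr3R:23314434-23314514) and in an intron of Snap25 (chr3L:24175590-24175670).
CG5888: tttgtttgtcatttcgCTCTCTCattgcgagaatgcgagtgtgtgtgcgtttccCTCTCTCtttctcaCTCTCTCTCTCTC
cpo: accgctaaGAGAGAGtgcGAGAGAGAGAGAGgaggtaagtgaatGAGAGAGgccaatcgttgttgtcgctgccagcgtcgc
lncRNA:bxd: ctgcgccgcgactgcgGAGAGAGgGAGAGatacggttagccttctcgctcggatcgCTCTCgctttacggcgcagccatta
pnt: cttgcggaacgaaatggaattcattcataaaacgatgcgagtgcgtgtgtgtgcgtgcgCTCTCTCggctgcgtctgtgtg
Snap25: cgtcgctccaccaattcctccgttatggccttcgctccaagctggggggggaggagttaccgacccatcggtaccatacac
The first 4 of these windows hold the GAGAG element and the last one does not. In the 151 bp around the summit, GAGAG on either strand was present in 9 of the 15 strongest regions and in 7 of the 10 strongest that lay more than 1500 bp from any transcript start. The same letters were present in 28.1% of all 14507 regions, in 19.1% of 23581 windows of that length centred on transcript starts and in 16.7% of windows tiled over the arms. None of the 15 strongest regions held the DRE (TATCGATA), Motif 1 or TATAAA in this window. In all 14507 regions their shares were also low, at 3.24%, 1.88% and 6.13%, so their absence from 15 does not set these apart.

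The strongest region of mock cells lay in an intron of Snap25, which encodes a SNARE protein of vesicle fusion, at chr3L:24175031-24175941. Its summit carried 2828, 2832 and 2935 fragments in mock replicates 1, 2 and 3, and it ranked first in each list. Fold enrichment over the local background was 17.2, 17.1 and 17.4. The lowest background at any peak was 39.7 to 41.7 fragments in these libraries, so the local background at this site was higher. The summit was 101450 bp into the gene, far from its annotated starts. Another intronic region of Snap25 (chr3L:24169125-24170379) held 1176, 1053 and 1136 fragments and ranked sixth. No region overlapped the windows at the starts of Snap25, although 20 regions lay within the gene and its upstream 1500 bp. An intron of the myosin gene Myo81F on arm 3R (chr3R:2087912-2089178) held the second strongest region, with 2796, 2578 and 2677 fragments. It stood beside the largest gap on the arms, described below. The next region, near the pseudogene CR41379 on arm 2R (chr2R:1808997-1810647), had 1061, 992 and 1005 fragments and lay wholly within an annotated transposable element. The 3 regions in Snap25 and Myo81F overlapped no annotated transposable element, and 9.56% to 15.8% of their bases were soft-masked as repeats in the RefSeq sequence, against 20.1% of the arms. The part of copy number or of multiply mapping reads in these values was not tested.

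The other strong regions are named here by the gene with the nearest start, which need not be the gene they act on. A region at a start of pnt, an ETS transcription factor, had 1189, 1135 and 1253 fragments, with the summit 159 bp upstream of the start. The region 4912 bp upstream of 18w, a receptor of the Toll family, had 964, 893 and 1005 fragments. Regions at starts of cpo, an RNA-binding protein, and nub, a POU domain factor, averaged 784 ± 38.2 and 787 ± 32.4 fragments (SD, n = 3). Regions upstream of rib and opa, a BTB domain and a zinc finger transcription factor, both averaged 822 fragments, with SDs of 28.3 and 21.5 (n = 3). Among tRNA genes, tRNA:Lys-CTT-1-5 had 939, 848 and 949 fragments and tRNA:Trp-CCA-2-6 had 888, 826 and 851, in regions of only 338 and 255 bp. The region in lncRNA:bxd, a non-coding RNA of the Bithorax complex that includes a Polycomb response element, had 639, 648 and 677 fragments. Outside the 15 strongest, the most accessible sites more than 1500 bp from a start included introns of EcR, the ecdysone receptor (1034, 943 and 998 fragments), and CG42673 (614, 607 and 664), and a site beside the homeobox gene oc (631, 578 and 602). The CG42673 site lay wholly within an annotated transposable element. Of the 15 strongest regions, 5 had the summit within 200 bp of a start, 2 lay upstream, 1 in an exon, 5 in introns and 2 between genes. The order depends on the measure, since 7 of the 15 were also among the first 15 by fold enrichment and 5 by summit fragments, while 13 and 14 were among the first 100.

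**Figure D1:**
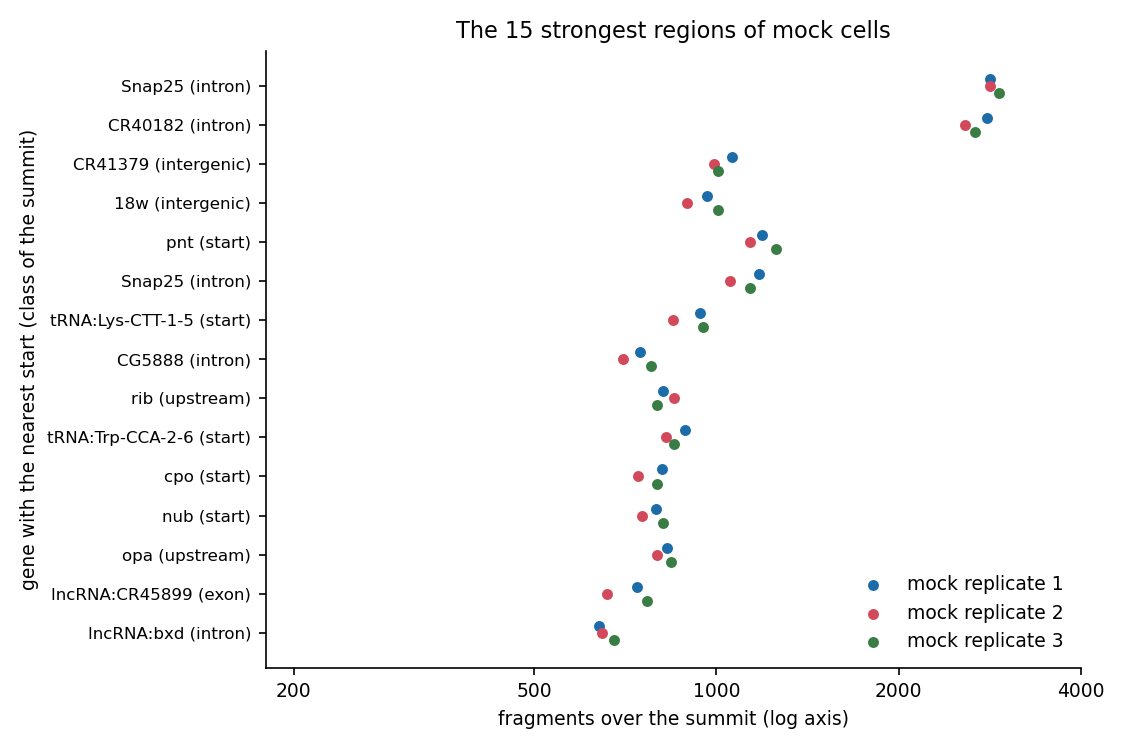
Fragments over the summit (x axis, log scale) of the 15 strongest regions, one row per region named by the gene with the nearest transcript start and the class of the summit, with a point for each mock replicate. The upper Snap25 region and the region labelled CR40182, which lies in an intron of Myo81F, sit between 2578 and 2935 fragments, and the other 13 regions between 639 and 1253.

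Replicates ranked the same regions alike. Spearman's rho of the percentile between 2 mock libraries was 0.961 to 0.965 over the 14526 regions, with a median difference of 3.63 to 4.29 percentile points. Summits of a region were a median of 16 to 17 bp apart between libraries. Presence in a list followed strength. The median percentile was 58.8 for regions in all 3 libraries, 17.3 for the 2828 regions in 2 libraries and 11.3 for the 4035 in only 1. Of the 2767 merged regions with a mean percentile of up to 10, 8.38% were present in all 3 libraries, against 99.4% of the 1795 above 90. Regions in all 3 libraries had a median width of 510 bp (quartiles 350 and 777 bp), against 274 and 195 bp for those in 2 libraries and in 1. The median peak in one library's own list was 377 ± 10.5 bp (SD, n = 3). Merging can only widen a region, but own lists also hold the narrower peaks outside regions in all 3 libraries, so these medians are not alike. Together these regions covered 9.01 Mb, and those on the arms took up 6.73% of the arms.

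Transcript starts were the main site of open chromatin. Regions with a summit within 200 bp of an annotated start made up 37.2% of all regions on 6.16% of the bases of the arms, a ratio of 6.04. A further 17.0% of regions lay up to 1500 bp upstream of a start (14.7% of bases), 20.5% in exons (17.7%), 17.6% in introns (37.3%) and 7.61% between genes (24.2%). Within the libraries' own lists, 31.5 ± 1.05% of peaks lay at starts and 24.5 ± 0.745% in exons (SD, n = 3). Start regions were also the strongest class, with a median percentile of 75.7 and a median of 257 fragments over the summit, against 56.2 and 171 in introns, 52.3 and 140 between genes, and 32.6 and 118 in exons. The median of start regions exceeded that of distal regions, in introns or between genes, by 20.3 percentile points, and on the libraries' own lists by 27.3, 27.7 and 28.8 points in mock replicates 1, 2 and 3. These differences are far larger than the spread between libraries. No test was run, since an exact sign-flip test over 3 libraries has too few outcomes to reach significance.

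Exonic regions were the weakest class. The median percentile of exon regions minus that of distal regions was −21.7 ± 0.303 points (SD, n = 3), and their merged regions had a median width of 543 bp, against 609 bp at starts and 412 bp in introns. In the libraries' own lists, exon peaks were 342 ± 9.85 bp wide, start peaks 523 ± 12.7 bp and intron peaks 312 ± 4.62 bp (SD, n = 3). Coding exons held 85.3% of them. Exon regions made up 51.8% of the weakest 10% of regions and 4.14% of the strongest 10%, while start regions made up 7.37% and 63.5%. Not every exonic region was weak, since 60 of 2981 were in the strongest 10%. The windows of 151 bp at exon summits also had the highest GC content, with a median of 57.6% against 47.0% at start summits and 42.4% in windows tiled over the arms. The part of base composition in their recovery by ATAC-seq was not tested.

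**Figure D2:**
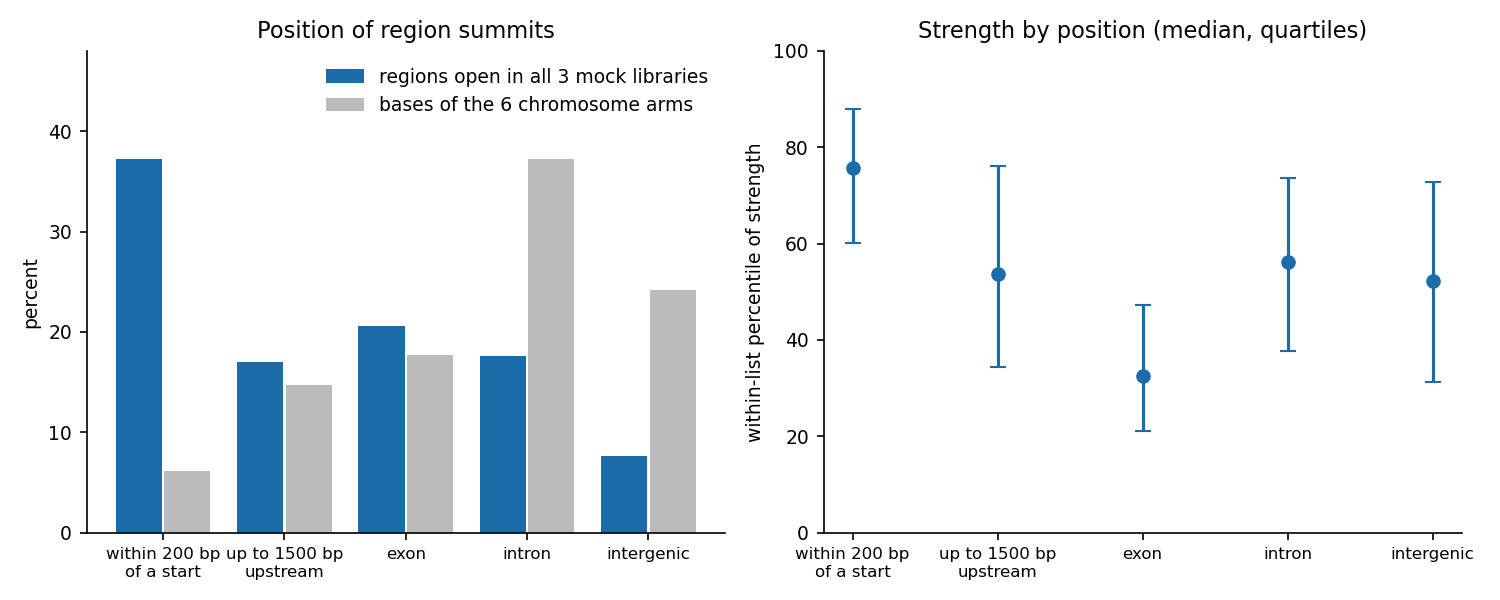
Left, percent of regions open in all 3 mock libraries (blue) and percent of bases of the 6 arms (grey) in each class of position. Right, within-list percentile of strength, with the median as a point and the quartiles as bars; start regions have a median of 75.7 and exon regions of 32.6.

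Summits at starts were centred on the start itself. The median offset of the 5397 start regions was −1 bp, 50.3% were upstream, and 52.7% lay within 50 bp. The profile of all peak summits was not symmetric, however. The bin from 50 bp upstream to the start held 8.85 ± 0.305% of a library's peaks (SD, n = 3). Downstream, the share was 1.60 ± 0.132% between 100 and 150 bp, 2.69 ± 0.136% between 150 and 200 bp, 0.980 ± 0.0274% between 250 and 300 bp and 1.57 ± 0.0405% between 350 and 400 bp. Shoulders centred 175 and 375 bp downstream thus stood out in each of the 3 libraries. At the same distances upstream the shares were 0.976 ± 0.0194% and 0.445 ± 0.0230%, with no shoulder.

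**Figure D3:**
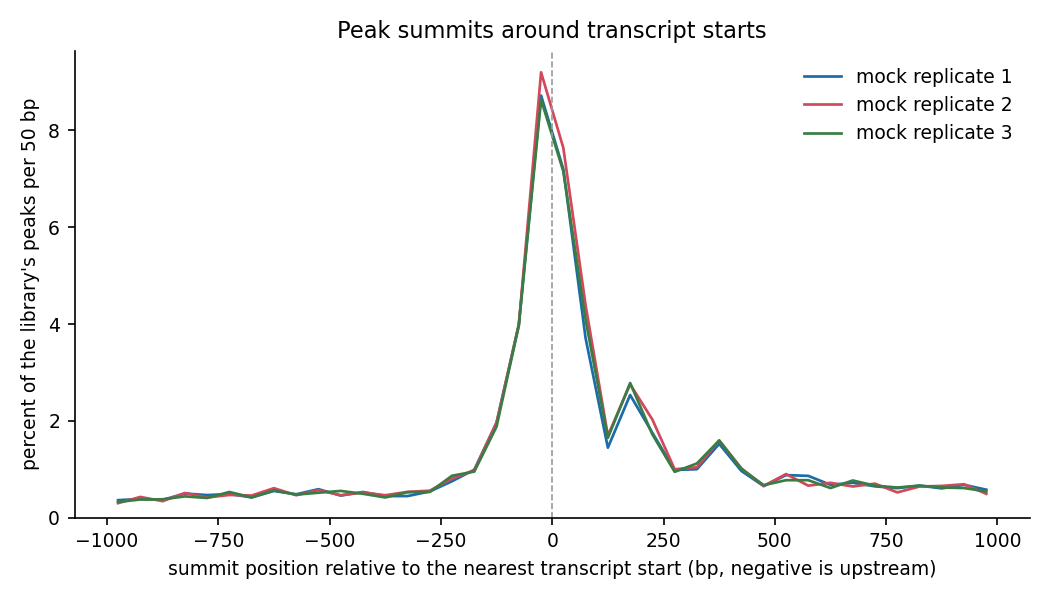
Percent of each mock library's peaks per 50 bp (y axis) against the position of the summit relative to the nearest transcript start in bp, with upstream negative. The lines of the 3 replicates overlie each other, with the main peak at the start and smaller ones about 175 and 375 bp downstream.

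A region overlapped the 200 bp centred on 9299 of 23581 distinct starts (39.4%). The share was 44.6% for starts of protein-coding genes, 14.3% for ncRNA genes and 7.27% for pseudogenes. Among genes of small RNAs it was highest for tRNA genes, with 164 of 290 starts (56.6%), against 15 of 32 for snRNA and 48 of 270 for snoRNA genes. None of the 99 annotated rRNA starts on the arms had a region. Repeated copies of rRNA, tRNA and snRNA genes share sequence, and the authors kept unique alignments only, so a copy without a region cannot be told apart from one on which reads could not be placed. Of 13945 protein-coding genes, 6672 had an open start (47.8%), with a median percentile of 76.1, and 5188 had no region in the gene or the upstream 1500 bp.

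Most listed genes of the cell cycle, cytosolic ribosome, translation elongation and proteasome had an open start, against 47.8% of all protein-coding genes. All 12 cell cycle genes listed had an open start. The highest percentile was that of the cyclin gene CycE (97.6, with 622, 610 and 659 fragments). PCNA, the sliding clamp of DNA replication, had the lowest (32.5, with 175, 188 and 177 fragments). By fragments Cdk1 stood below PCNA, with 120, 120 and 116 (percentile 45.3). Of 93 genes of the cytosolic ribosome, 75 were open, with a median percentile of 90.1 and 39 above the 90th percentile. RpL37-1 was the highest with 99.9, and RpL40 the lowest with 18.7. The value of RpL40 varied widely, at 4.19, 44.1 and 7.71 in mock replicates 1, 2 and 3. Among translation elongation factors, 6 of 7 were open, the exception being eEF1alpha2. Of 48 proteasome genes, 30 were open (62.5%), so this count by itself does not set them apart. Percentiles of the open ones ran from 24.5 (Rpt3R) to 93.7 (Rpt5). Several closed members of these lists, such as Prosalpha3T and Rpt6R, are testis-type paralogs.

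Insulator and promoter factors were likewise open, with 13 of 13 matched genes, against 47.8% of all protein-coding genes. They ran from mod(mdg4), a core insulator protein (percentile 95.7), to CTCF (42.4). M1BP itself had 247, 291 and 335 fragments at its start (percentile 84.0) and Cp190 had 294, 289 and 301 (83.5). The region at RpL13 was also that of Dref, the factor that binds the DRE, and reads there belong to both starts.

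Ecdysone response and JNK pathway genes were open in each matched case, heat shock genes in part. All 11 matched ecdysone response genes were open, with EcR first (977, 910 and 975 fragments, percentile 99.8) and Hr4, a nuclear receptor, last (118, 122 and 149 fragments, percentile 52.5). All 8 AP-1 and JNK genes were open, from the phosphatase gene puc (percentile 94.9, with 480, 439 and 471 fragments) to Jra, the Jun homolog (percentile 59.8, with 262, 240 and 253 fragments). By fragments the order differs, since msn had more than puc and hep fewer than Jra. Of 13 heat shock genes 8 were open (61.5%), against 47.8% of all protein-coding genes, so this count by itself does not set them apart. The cells were not labelled as heat shocked. Hsp70Ba had the highest percentile (94.6, with 323, 313 and 332 fragments), and Hsp27 the lowest (66.5, with 206, 196 and 216 fragments). By fragments Hsp83 stood above Hsp70Ba, with 448, 438 and 474 (percentile 93.0). The Hsp70 copies are nearly identical, so the closed Hsp70Aa, Hsp70Ab and Hsp70Bb cannot be told apart from copies without unique reads.

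Cell type markers were mixed. The hemocyte list had 8 of 13 open starts (61.5%), against 47.8% of all protein-coding genes and 60.0% of the muscle list, so the count by itself does not set it apart. Its highest members were zfh1 (736, 620 and 639 fragments, percentile 99.2), ush (719, 740 and 793, percentile 98.7) and srp (633, 551 and 602, percentile 96.6). These 3 encode transcription regulators of blood cells. Pvr, a receptor kinase, followed with percentile 87.9, then the matrix peroxidase Pxn (80.9), the scavenger receptor crq (80.6), hemolectin Hml (77.3) and the phagocytic receptor eater (67.4). The starts of NimC1, He, Ppn and the collagen IV genes Col4a1 and vkg had no region. The nearest region was 426 bp from a start of NimC1 and 1141 bp from He, but 9307 bp from Ppn, 13513 bp from Col4a1 and 14938 bp from vkg. The regulators on the hemocyte list thus had open starts, and its effector genes only in part. Of 5 matched crystal cell and lamellocyte genes 3 were open, from PPO2 (percentile 47.5) to the integrin gene mys (89.9).

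The lists of other cell types differed among themselves, where 47.8% of all protein-coding genes had an open start. None of 5 fat body genes and 1 of 5 neuronal genes had an open start, the neuronal one being elav (percentile 93.2), in a region that also covers a start of lncRNA:enrr. The single open germline gene of 4 matched, zpg, had percentile 99.5 in a region shared with a start of Rexo5. Muscle and epithelial genes had 3 of 5 each, with the regulator Mef2 at percentile 98.1 and the growth factor gene bnl at 98.2. Of 119 chemoreceptor genes 5 were open, and for 3 of these the region also covered the start of another gene, as for Gr94a and p53. Among the 8 Hox genes only Ubx had no region at a start, with the nearest 29299 bp away. Scr was the strongest of the open ones (percentile 97.6), and Abd-B the weakest (44.8).

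**Figure D4:**
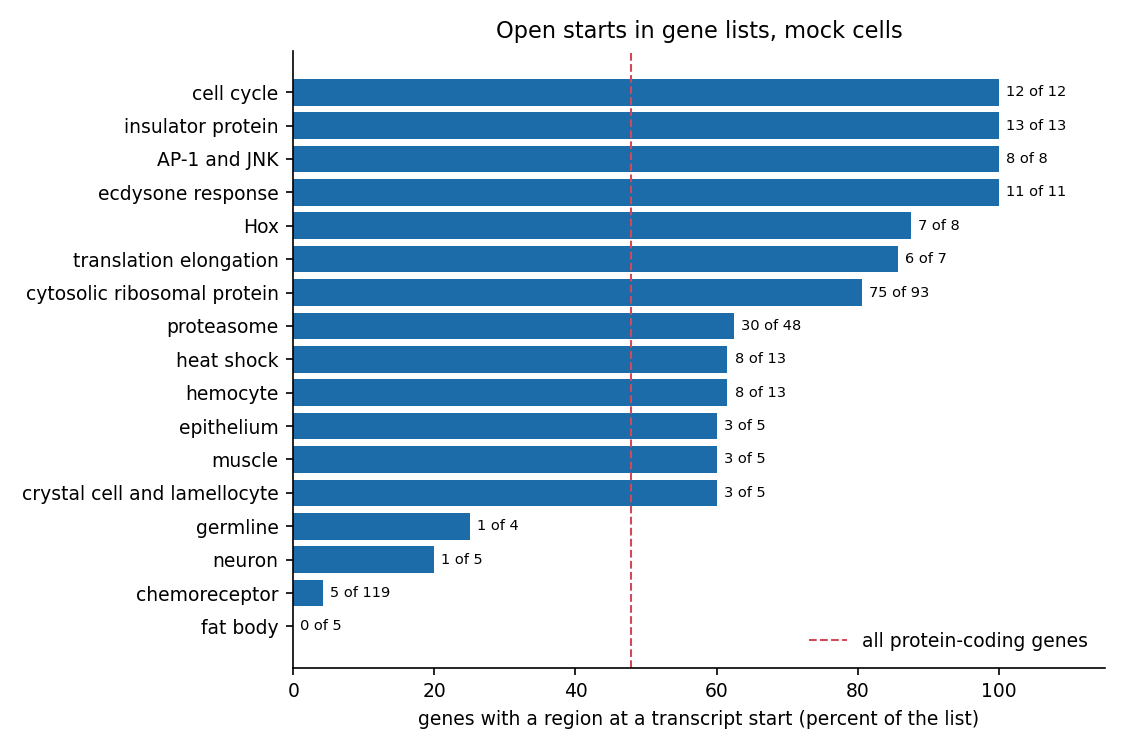
Percent of the matched genes of each list with a region at a transcript start (bars, with counts), against 47.8% for all protein-coding genes (dashed line). The 4 lists at 100% are cell cycle, insulator, AP-1 and JNK, and ecdysone response genes, and fat body genes are at 0.

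Width picked out other genes than strength did. The widest region, 3606 bp at chr3L:1502156-1505761, lay at the start of hfp, a splicing regulator, with 333, 324 and 326 fragments at its summit. It merged 9 peaks of the 3 lists, and the widest single peak in a mock list was 3249 bp. Each of the 10 widest regions merged 4 to 9 peaks, so its width can span separate peaks. Coding exons of pico (3264 bp), enc (3104 bp) and sif (2986 bp) held broad regions of middling strength, with percentiles of 60.8, 51.5 and 38.8. Others of the 10 widest lay at or next to starts of Rcd5, Arpc4, Sac1, CG7369 and mtgo. Over the arms, the rank correlation of width with strength was 0.325 across 14507 regions, which is a description only. Of the 130 regions over 2 kb wide, 57.7% were at starts.

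The genes with most open bases were long genes with many regions. Dbp80, an RNA helicase gene of 144344 bp with its upstream part, held 35 regions with 21369 open bases, or 14.8% of that span. Next came Ten-m, a teneurin of cell adhesion (29 regions, 19178 bases), Ptp61F, a tyrosine phosphatase (26 regions, 15956 bases), and heph, an RNA-binding protein (29 regions, 15790 bases). Svil, Snap25, Flo2, bun, spri and EcR completed the first 10. By share, compact genes led. U4-U6-60K, a protein of the spliceosome, was open over 85.2% of its 3558 bp, followed by Rcd5 (80.9%), the lipid phosphatase gene mtm (78.3%), CG3702 (77.3%) and CG2061 (76.4%). The others were Dgkepsilon, CG10147, the chaperonin gene CCT6, VhaAC45 and DCAF12, with 70.7% to 73.5%. The median protein-coding gene of 2 kb or more was open over 12.2% of its span.

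Regions were clustered along the arms. The median gap between neighbours was 3319 bp, with quartiles of 802 and 7765 bp. Gaps under 500 bp made up 17.7%, and the 19.8% over 10 kb summed to 88.9 Mb. Per 100 kb there was a median of 10 regions, with up to 34 and with 88 of 1323 bins empty, and Spearman's rho with the number of protein-coding genes was 0.604 across bins. A bin on X with Imp, sesB and Atg8a and one on 2L with brat, Ddc and Lim3 held 34 regions each. The 5 largest gaps lay in the parts of 3R and 2R near the centromere. They were 1285 kb (chr3R:2089179-3374252) and 1058 kb (chr3R:1027438-2085237), both within or beside Myo81F, then 463, 452 and 390 kb on 2R. At most 0.949% of a gap was unsequenced bases, and each library had 0 to 3 peaks in it. Of the bases in these 5 gaps, 36.0% to 45.4% were soft-masked as repeats, against 20.1% of the arms. Since unique alignments alone were kept, closed chromatin and sequence on which reads could not be placed cannot be told apart there.

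Density was highest on X, with 118 regions per Mb, against 111, 106, 111 and 100 on 2L, 2R, 3L and 3R and 80.9 on the small chromosome 4. The ratio of X to the 4 autosome arms was 1.11, and 1.13, 1.11 and 1.10 on the lists of mock replicates 1, 2 and 3, so that it exceeded 1 in each. X has fewer protein-coding genes per Mb (93.3) than 2L (113), and 54.0% of its genes had an open start, against 43.3% to 48.6% on the 4 autosome arms and 60.0% on chromosome 4, which has 80 such genes. The 2 Mb next to the centromere held 2.00 to 71.5 regions per Mb on the 5 large arms, against 107 to 125 in the rest of each arm. Copies of X and autosomes in this line were not measured here.

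**Figure D5:**
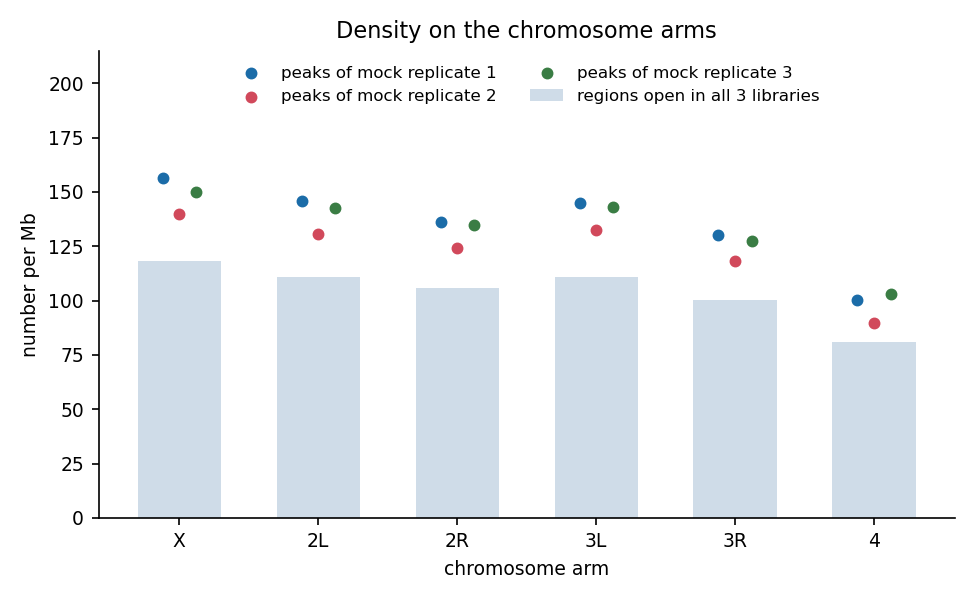
Number per Mb on each chromosome arm, with bars for regions open in all 3 mock libraries and points for the peaks of each replicate's own list. X has the most in each of the 3 replicates (140 to 156 peaks per Mb) and chromosome 4 the fewest (89.8 to 103).

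Sequence elements differed by position and strength. GAGAG was present at 38.8% of start regions that were among the strongest 10% of all regions, against 24.2% of those among the weaker 50%. Among distal regions the shares were 52.9% of 255 in the strongest 10% and 26.2% of 2021 in the weaker 50%. Taking the summit of each library in turn gave 52.0 ± 0.987% and 26.2 ± 0.125% (SD, n = 3). The median GC content of these distal sets was 49.0% and 48.3%. The DRE (TATCGATA, either strand) was a feature of starts, with 7.87% of start regions, 0.519% of distal regions, 4.92% of all starts and 0.419% of windows tiled over the arms. Motif 1 matched 5.00% of start regions and none of 3660 distal ones, against 2.54% of all starts. CGATA, whose letters lie within the DRE and which BEAF-32 binds, was in 35.7% of start regions, 28.7% of all starts and 16.5% of tiled windows. TATAAA was scarce, with 9.23% of start regions and 6.61% of distal ones, against 21.0% of all starts and 17.0% of tiled windows. Intronic regions held TGATAA, the GATA element, in 14.2% and TGANTCA, the AP-1 element, in 6.38%, against 9.24% and 2.95% of tiled windows. TTCNNNGAA, the Stat92E element, was in 3.44% of intronic regions and 4.45% of tiled windows, and CAGCTG was in 14.5% of exon regions and 6.35% of tiled windows. TCAGT, the initiator core, was in 28.9% of start regions and 36.5% of all starts. Windows of start regions were centred on summits, of which 52.7% lay within 50 bp of a start. Windows of all starts were centred on the start itself. An element at a start can therefore fall outside the former, so these 2 shares are not strictly alike. Windows also differ in base composition between these sets, and a match is only a description.

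Most regions of mock cells also had peaks in the knockdown libraries. All 3 M1BP knockdown libraries had a peak in 69.1% of the 14507 regions, all 3 Cp190 knockdown libraries in 88.6%, and all 9 libraries of the series in 64.1%. The 15 strongest, the 10 strongest distal and the 10 widest regions were each present in all 9. Of the strongest 10%, 99.6% were in all M1BP knockdown libraries and 98.1% in all Cp190 knockdown libraries, whereas of the weakest 10% the shares were 12.5% and 61.0%. Counted library by library, the weakest 10% were present at 28.0 ± 6.87% in M1BP knockdown libraries and 78.4 ± 3.17% in Cp190 knockdown libraries (SD, n = 3 each). The lowest background at any peak was 32.3 ± 2.86 fragments in M1BP knockdown libraries, 43.3 ± 3.78 in Cp190 knockdown libraries and 40.6 ± 1.03 in mock libraries (SD, n = 3 each). Its part in these shares was not tested. By class, start regions had 87.2% and 96.3%, exon regions 36.4% and 85.1%, and regions between genes 66.8% and 72.6%. Within the weakest 30%, where most exon regions fell, the M1BP knockdown libraries shared 17.3% of exon regions and 35.0% of distal ones, and the Cp190 knockdown libraries 80.1% and 68.4%. These shares were not tested, and regions were required in the mock lists but not in the others, so some loss is built in.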

How the data were processed

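ATAC-seq peak lists of 3 mock, 3 M1BP knockdown and 3 Cp190 knockdown libraries of Kc167 cells were used, grouped by the sample titles. According to the submitters' processing notes, read pairs were trimmed (cutadapt 1.8.1), mapped to dm6 (Bowtie2 2.3.5) and filtered (SAMtools 1.9, Picard), and the methods add that unique pairs were kept. The authors listed peaks library by library with MACS2 2.2.5, with no control library and a q-value of 0.0001. A Tn5 shift is not given in the sources used here. The deposited lists give peak positions and summits, a fold enrichment (a ratio over the local background), and −log10 p and −log10 q of the summit, all computed by the authors' peak caller. The deposited score column restates −log10 q and was not used.

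Strength was the percentile of −log10 q within a list, the highest peak per region, averaged over 3 libraries. Fold enrichment and −log10 p together fix the fragments over a summit, which came out whole (within 0.05) for 100% of mock peaks. The lowest background at any peak was 39.7 to 41.7 fragments, so the mock libraries were of similar depth, and read totals were not used here. Peaks were merged at 1 bp overlap. Genes came from Ensembl release 115 and sequence from RefSeq, both of dm6, with transposable elements left out of the genes. Summits were classed in the order start (200 bp to each side), upstream (1500 bp), exon, intron, intergenic. A start was open if the 100 bp to each side overlapped a region.

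Named were the 15 strongest regions, the 10 strongest more than 1500 bp from a start, the 10 widest, the 10 genes with most open bases and the 10 genes of 2 kb or more with the largest open share, the 5 largest gaps, and list members. One of the 10 widest regions is not reported here. Of each list the highest and lowest members were to be named, and others named in the text were chosen after their values were seen, as were the downstream shoulders of the summit profile and the regions sharing a start. The members and lists were chosen with earlier results of these data known. Analyses used python 3.11.15, numpy 2.4.6, pandas 2.3.3 and scipy 1.17.1, with matplotlib 3.10.9 for figures, and merging, classes and fragment recovery were tested on simulated data. Alternatives were a stricter threshold, the required overlap and number of libraries, equal list lengths, other start sets and windows, fold enrichment, arms without 2 Mb at the centromere, and leaving out each mock library.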

Additional observations from a re-analysis of the deposited data

How the results depend on the processing

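The strength difference of start and distal regions, the only measure checked for a change of sign, kept its sign. In all, 39 of 59 recomputed values moved by more than the SD over the mock libraries (a count by more than 1.5 times). Keeping only peaks at −log10 q of 20 or more moved each main measure. It left 8723 regions with a median width of 593 bp, a median gap of 5390 bp, 53.0% of regions at starts, 34.1% of starts with a region, start regions 15.2 percentile points above distal ones and an X to autosome ratio of 1.14. Requiring each library's peaks to cover 50% of a region gave a gap of 3642 bp, 38.5% of regions at starts and 38.2% of starts with a region. Accepting regions in 2 or more libraries gave a width of 457 bp, a gap of 2655 bp, 32.6% of regions at starts, 40.9% of starts with a region and a difference of 26.6 points. With the same number of strongest peaks per library these were 3535 bp for the gap, 38.7% of regions and 39.1% of starts. Protein-coding starts alone gave 35.2% of regions, 44.6% of starts and 18.9 points. A window of 500 bp put 47.7% of regions at starts, and fold enrichment in place of −log10 q gave 17.2 points. Leaving out each mock library in turn gave widths of 461 to 474 bp, gaps of 2916 to 3100 bp, 34.7% to 35.8% of regions at starts, 39.5% to 39.8% of starts with a region, differences of 22.3 to 23.2 points and ratios of 1.11 to 1.13. The cause of these shifts was not tested, except that fewer libraries, or a lower demand on them, admit more weak regions by construction. No paired analysis was possible because each result describes one group and comes from no test. Only presence in a list could be seen, so a site without a region may be weakly open, and depth beyond the fragments over summits is unknown.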
